A study of Mus musculus with 13 samples.

Results

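The 47 genes described here are interferon-stimulated effectors outside the Ifit, Gbp, Oas, Irf and IRG families, picked from the 52550 genes of a bulk RNA-seq count table by a written list of symbols. All 47 were found by Ensembl identifier, and all had at least 1 count in some library. The list was chosen with results of these libraries in view, and which values chose its members is not recorded. The comparison of AAV2-Cre with AAV2-GFP is therefore a description of the members. Genes called by the fit are counted there, no p-value of a member is given, and the calls are no independent evidence. Adjusted p-values of members between ages carry the same limit, since the list may have been chosen on those values too. The libraries came from mouse retinal cells sorted for Thy1.2, a surface antigen of retinal ganglion cells (RGCs) that T cells also carry. The knockout dataset held Kdm6a-floxed (Kdm6a f/f) mice 3 days after optic nerve crush, with the virus given into the vitreous before the injury, and their age is P42 (postnatal day 42) by the labels. It had 2 libraries after AAV2-Cre, labelled as the UTX knockout, and 3 after AAV2-GFP. Floxed alleles, injury and age were shared by both arms. Both got AAV2, but with Cre or with GFP, so a difference of vector cannot be told apart from the deletion. Cre acted only in cells that the virus reached, and UTX is the protein made by Kdm6a, an H3K27 demethylase. The development dataset held uninjured wild type (WT) mice without virus, with 3 libraries at P1, 3 at P14 and 2 at P21. The study's methods call the replicates of each condition or age biological. Nothing in the sources used here ties a library to 1 animal, so the spread between libraries may be partly technical.

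Interferons are secreted alarm signals of infection and tissue damage. Type I interferons bind the Ifnar1 and Ifnar2 receptor, whose kinases activate a transcription factor complex with Stat2 and Irf9 that binds interferon-stimulated response elements in DNA. The genes it switches on include a protein tag (Isg15) with its enzymes, proteins that block viral entry, RNA and budding, sensors of foreign DNA and RNA, and proteasome subunits that cut peptides for display to T cells. In the retina such genes are known to respond in microglia, Müller glia, vessels and neurons alike, so a bulk library does not say which cell carries them.

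Levels are CPM, each gene's count relative to its library's total after TMM scaling (trimmed mean of M values), and fold changes are from edgeR's quasi-likelihood fit. A gene is called at a Benjamini-Hochberg adjusted p under 0.05 over all genes tested. Total counts ran from 13637602 to 16070720 in the knockout dataset and from 30357454 to 38812917 in the development dataset. Every pair of replicates differed by more than sampling noise. P1 library 3 stood further from the other P1 libraries than they stood from each other, with a chi-square per degree of freedom of 15 and 17.6 against 3.65. Kdm6a itself was at 109 ± 2.10 CPM (SD, n = 2) after AAV2-Cre and 108 ± 10.7 CPM (SD, n = 3) after AAV2-GFP. A count over the whole gene is no check of a floxed exon, so for these libraries the knockout is known from the labels alone. By real-time PCR on purified RGCs, the study reports markedly less Kdm6a mRNA after AAV2-Cre than after AAV2-GFP in floxed mice. By immunostaining it reports less Kdm6a protein in RGCs after AAV2-Cre in floxed than in wild type mice. The RGC label was checked against 12 RGC markers. Their summed share of counts was 0.753 to 0.829% at P1, 0.114 to 0.129% at P14, 0.0355 to 0.0670% at P21, and 0.0284 to 0.0370% in the injured adults, where Pou4f2 was at 0 in both AAV2-Cre libraries. Markers of rods took 1.33 to 3.47% and those of microglia and macrophages 0.737 to 1.19% of counts in the adults, so these libraries held RNA of other cells beside RGCs. In bulk samples, fewer cells of a type and less RNA per cell cannot be told apart.

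RefSeq promoters (build GRCm38.p6, 250 bases before to 50 after the annotated start) were at hand for 38 of the 47 genes, in 48 promoter entries. The core of the interferon-stimulated response element, GAAANNGAAA or TTTCNNTTTC on the other strand, stood in at least 1 promoter of 16 of these 38 genes (42.1%), against 1079 of the 27025 genes with a promoter in the whole reference (3.99%). The gamma-activated site, TTCNNNGAA, which reads the same on both strands and is the element of interferon gamma signalling, stood in 7 of 38 (18.4%) against 2582 of 27025 (9.55%). In Bst2, Ifitm3 and Shisa5 the matches to these elements overlapped. A match is a run of letters and not a bound site. Other genes with a large difference in level below, Isg20, Samd9l, Phf11d and Cmpk2, held no match to the response element core in any promoter entry. The promoters of 3 genes with such a difference that do hold the core are shown whole, with the core in capitals. They run 5′ to 3′ on the strand of the gene, which is the minus strand for each. Isg15 (chr4:156200769-156201068) held 3 overlapping matches beginning at -78, -72 and -66 from the start base, counted as 0. Rsad2 (chr12:26456403-26456702) held a match on the opposite strand at -120, and Ifitm3 (chr7:141010695-141010994) held 2 just after the start, at 2 and 19.
Isg15: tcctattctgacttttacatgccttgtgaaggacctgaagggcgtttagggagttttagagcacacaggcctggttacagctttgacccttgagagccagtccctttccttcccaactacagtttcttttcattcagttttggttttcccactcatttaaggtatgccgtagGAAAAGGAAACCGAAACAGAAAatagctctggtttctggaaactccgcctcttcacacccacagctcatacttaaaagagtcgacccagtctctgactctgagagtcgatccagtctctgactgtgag
Rsad2: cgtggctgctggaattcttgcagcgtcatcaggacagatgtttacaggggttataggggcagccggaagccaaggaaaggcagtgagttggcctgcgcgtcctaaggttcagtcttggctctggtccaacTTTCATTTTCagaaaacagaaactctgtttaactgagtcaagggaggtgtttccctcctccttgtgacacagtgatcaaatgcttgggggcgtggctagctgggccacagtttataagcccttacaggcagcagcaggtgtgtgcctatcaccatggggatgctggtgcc
Ifitm3: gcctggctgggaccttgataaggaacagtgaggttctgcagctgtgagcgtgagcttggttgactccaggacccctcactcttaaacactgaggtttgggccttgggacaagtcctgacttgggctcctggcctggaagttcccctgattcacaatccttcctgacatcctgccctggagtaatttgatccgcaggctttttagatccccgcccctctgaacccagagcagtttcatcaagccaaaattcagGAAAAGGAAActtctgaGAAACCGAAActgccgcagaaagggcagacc

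Some members lie side by side and carry similar elements. Within 200000 bases of each other were 8 clusters holding 22 of the 47 genes, in the GRCm38 annotation (GENCODE M21). The p200 genes Ifi213, Ifi209, Ifi204, Ifi211 and Ifi203 lie at chr1:173566283-173942672, Slfn5, Slfn8 and Slfn2 at chr11:82951349-83070678, and Parp14, Dtx3l and Parp9 at chr16:35832874-35972605. Rsad2 and Cmpk2, Mx1 and Mx2, Psmb9 and Psmb8, Phf11b and Phf11d, and Trim34a, Trim30a and Trim30d form the rest. The windows below show the core in capitals with 10 bases on either side for 3 p200 genes (chr1:173942508-173942537, chr1:173913064-173913093 and chr1:173599326-173599355) and 2 Trim30 genes (chr7:104465210-104465239 and chr7:104507871-104507900), all on the minus strand, because the Trim30 windows are the same letter for letter and the p200 windows share most of the bases that follow the core.
Ifi203: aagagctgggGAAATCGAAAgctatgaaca
Ifi211: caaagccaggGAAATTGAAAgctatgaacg
Ifi213: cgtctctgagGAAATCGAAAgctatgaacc
Trim30a: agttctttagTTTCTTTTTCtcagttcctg
Trim30d: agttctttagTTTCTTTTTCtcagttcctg

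Such kinship also limits the counts. Of the 100-base words in its transcripts, Ifi211 shared 56.9% with other genes, mostly Ifi205, Trim34a 21.0%, mostly with Trim34b, Ifi209 16.9%, Phf11b 13.8%, and Ifi204 10.7%, so reads of these genes may be split between copies or lost. Parp9 and Dtx3l share 458 exonic bases on opposite strands, and the library kit named in the labels does not mark strand. Exons of Trim34a (23.5%), Ifi35 (16.8%), Psmb8 (14.7%), Rtp4 (13.9%) and Herc6 (13.7%) overlap those of other annotated genes, which adds uncertainty to their values. Herc6 and Rtp4 also shared 10.3% and 9.28% of their words, and no other member reached 5%.

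Across the 13 libraries the 47 genes as a group were lowest at P1, higher and level at P14 and P21, higher again in injured adults with AAV2-GFP, and at their peak after AAV2-Cre. Together they took 0.0124 to 0.0152% of counts at P1, 0.0452 to 0.0481% at P14, 0.0468 to 0.0481% at P21, 0.142 to 0.184% after AAV2-GFP, and 0.416 to 0.461% after AAV2-Cre. The ranges of P14 and P21 overlapped and the others did not. The knockout and development datasets differ in age, genotype, injury, virus and depth at once, so the step from development to the adults cannot be told apart from any of these.

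**Figure D1:**
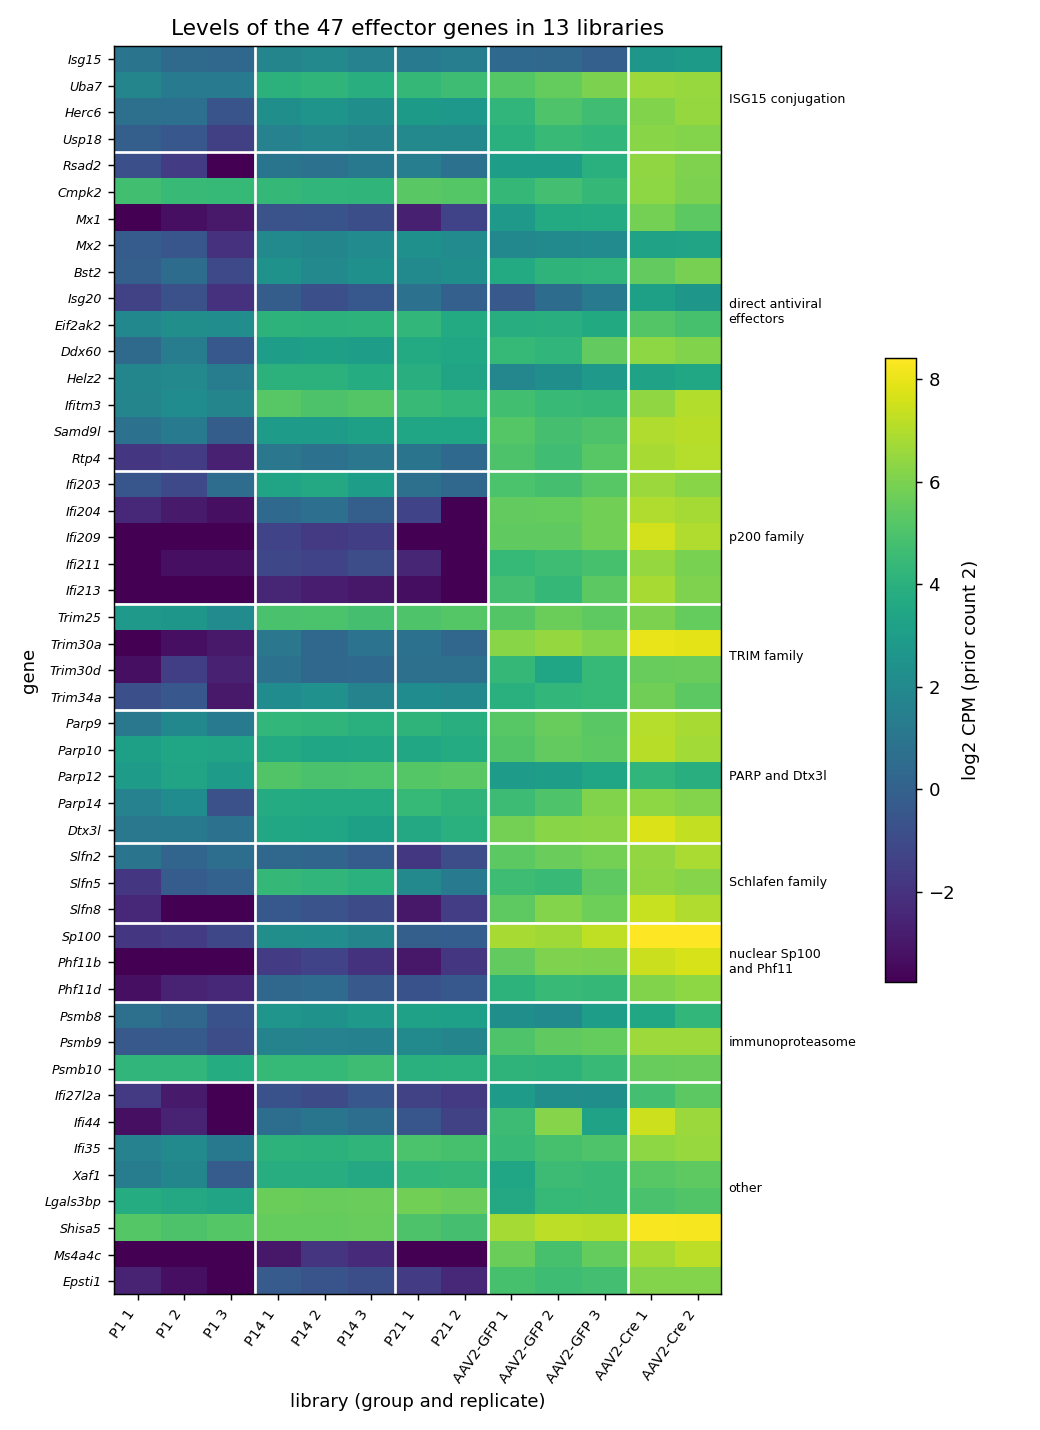
Log2 CPM (prior count 2, colour scale) of each of the 47 genes (rows, grouped by role) in each of the 13 libraries (columns, by group). The AAV2-Cre columns are the brightest for most rows, and the p200 rows darken between P14 and P21. Isg15, Eif2ak2, Helz2, Ifitm3, Parp12 and Lgals3bp, among others, are no brighter after AAV2-GFP than at P14.

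After optic nerve crush, all 47 genes had a higher fitted level with AAV2-Cre than with AAV2-GFP. The median log2 fold change was 1.47, with a range from 0.34 for Trim25 to 2.80 for Rsad2, beside a median of -0.03 over the 18395 genes tested. Of the 47, 33 were called higher and 14 not called, beside 1.33% of all genes called higher, and since the list was chosen with these libraries in view nothing is read from that count. Both AAV2-Cre libraries lay above all 3 AAV2-GFP libraries for 46 genes, beside 19.8% of all genes tested, and Trim25 was the exception. The count depended on having both AAV2-Cre libraries. With AAV2-Cre library 1 left out 1 gene was called, and with library 2 left out 0 were, in fits where the spread of the lone library is taken from AAV2-GFP. The median log2 fold change was 1.38 and 1.51 in these fits.

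**Figure D2:**
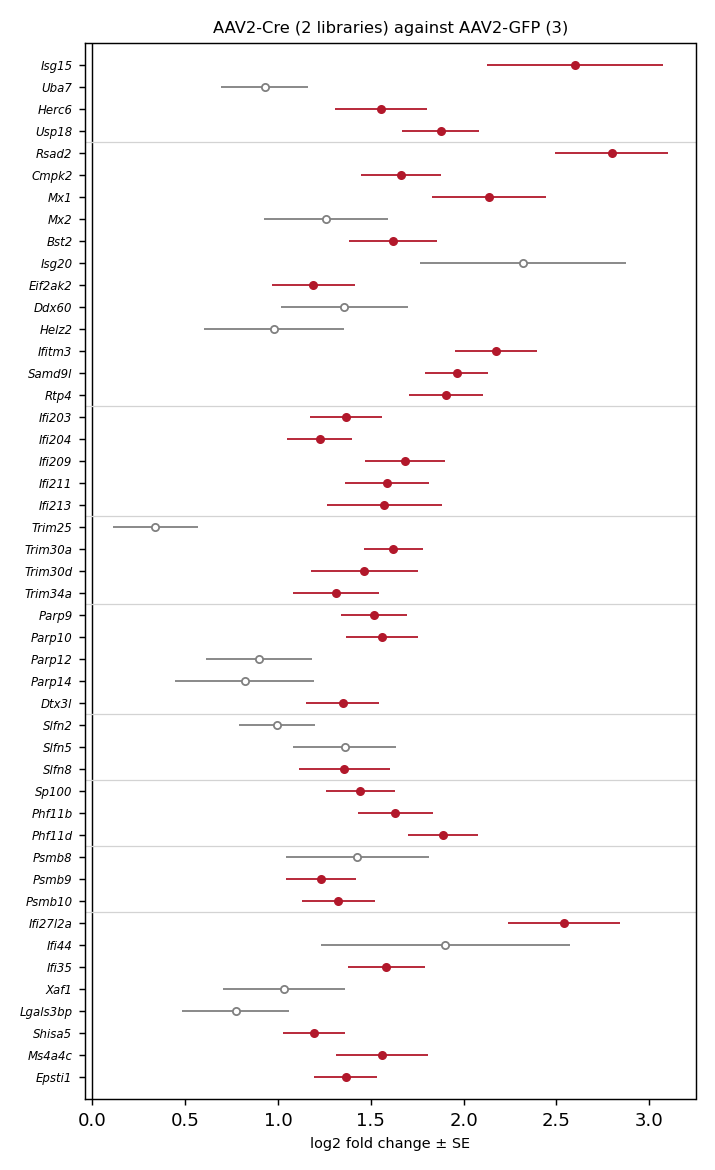
Log2 fold change with its SE for AAV2-Cre (2 libraries) against AAV2-GFP (3 libraries) for the 47 genes (rows, grouped by role), with called genes in filled red and genes not called in open grey. All points lie right of 0, from 0.34 (Trim25) to 2.80 (Rsad2).

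In the ISG15 system, Isg15 is the protein tag, Uba7 activates it, Herc6 ligates it to targets in mice and Usp18 removes it and restrains the interferon receptor. Isg15 was at 6.38 and 7.34 CPM after AAV2-Cre and at 1.25, 1.14 and 0.891 CPM after AAV2-GFP, a log2 fold change of 2.60 ± 0.47 (SE). Usp18 was at 74.9 and 71.2 CPM against 15.5, 22.6 and 19.8 CPM, a log2 fold change of 1.88 ± 0.21. The tag and the enzyme that removes it thus both had groups set well apart, although Isg15 rested on few counts. Herc6 was also called, at 1.55 ± 0.25, while Uba7 was not, at 0.93 ± 0.24.

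Of the 12 direct antiviral effectors, 8 were called higher. Rsad2, or viperin, an enzyme that makes a chain-terminating nucleotide, was at 83.2 and 67.2 CPM after AAV2-Cre and at 8.25, 7.89 and 15.4 CPM after AAV2-GFP. Its log2 fold change of 2.80 ± 0.30 (SE) was the highest of the 47. Cmpk2, the neighbouring gene that encodes a nucleotide kinase, had a log2 fold change of 1.66 ± 0.22. Mx1, a GTPase that traps incoming virus, was at 58.4 and 40.7 CPM against 7.0, 12.7 and 13.1 CPM, a log2 fold change of 2.14 ± 0.31. Bst2, or tetherin, which holds budding particles at the membrane, was at 45.3 and 60.0 CPM against 12.9, 17.7 and 19.2 CPM, a log2 fold change of 1.62 ± 0.24. For all 4 of these genes both AAV2-Cre libraries lay above every AAV2-GFP library, with Rsad2 and Mx1 the widest apart.

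Ifitm3, which blocks fusion of viral and cell membranes, was at 83.8 and 131 CPM after AAV2-Cre and at 26.4, 22.5 and 20.3 CPM after AAV2-GFP, a log2 fold change of 2.17 ± 0.22 (SE). Its call was kept in 12 of 13 alternative analyses, the most of any member. Eif2ak2, or PKR, the kinase that halts translation on double-stranded RNA, had a smaller gap, with 35.3 and 29.5 CPM against 14.3, 14.9 and 12.3 CPM and a log2 fold change of 1.19 ± 0.22. It kept its call in 7 of 13, as did Isg15 and Ifi213. Samd9l (1.96 ± 0.17) and Rtp4 (1.91 ± 0.20) were called as well. The helicases Helz2 (0.98 ± 0.38) and Ddx60 (1.36 ± 0.34), Mx2 (1.26 ± 0.34) and the exonuclease Isg20 (2.32 ± 0.56) were not called, although their AAV2-Cre and AAV2-GFP libraries did not overlap.

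The p200 proteins bind foreign or damaged DNA, and all 5 of their genes were called. Ifi204 was at 126 and 111 CPM after AAV2-Cre and at 44.4, 45.9 and 57.4 CPM after AAV2-GFP, a log2 fold change of 1.22 ± 0.18 (SE) that was the smallest of the family. Ifi209 had the largest, 1.68 ± 0.22. The log2 fold changes of this neighbouring set thus ran from 1.22 to 1.68, a narrower range than that of the TRIM genes, from 0.34 to 1.62. Trim30a, which dampens Toll-like receptor signalling, was at 255 and 243 CPM against 75.9, 89.5 and 70.5 CPM, a log2 fold change of 1.62 ± 0.16. Trim25, the ubiquitin ligase that activates the RNA sensor RIG-I, was at 65.0 and 45.9 CPM against 35.6, 50.7 and 41.3 CPM, and its groups overlapped.

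Of the PARP genes, which attach ADP-ribose to proteins, and Dtx3l, the ubiquitin ligase that pairs with Parp9, 3 of 5 were called. Parp10 had the largest log2 fold change, 1.56 ± 0.19 (SE), and Parp14 the smallest, 0.82 ± 0.37. Parp14 was at 80.8 and 70.7 CPM after AAV2-Cre and at 23.9, 33.0 and 68.1 CPM after AAV2-GFP, so that AAV2-GFP library 3 lay just below the AAV2-Cre libraries and the groups barely separated. Its neighbours Parp9 and Dtx3l were called, at 1.52 ± 0.18 and 1.35 ± 0.20.

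Of the Schlafen genes, which restrain growth of lymphocytes and translation, Slfn8 was called by edgeR, at a log2 fold change of 1.36 ± 0.24 (SE), while DESeq2 and limma-voom each called all 3. Slfn2 was at 87.5 and 116 CPM after AAV2-Cre and at 40.6, 50.2 and 58.2 CPM after AAV2-GFP, a log2 fold change of 0.99 ± 0.20 that was the smallest of the family. All 3 genes of nuclear proteins were called. Sp100, a scaffold of nuclear bodies, was at 341 and 337 CPM against 112, 101 and 151 CPM, a log2 fold change of 1.44 ± 0.19, and Phf11d reached 1.89 ± 0.19. For Sp100 the AAV2-Cre libraries differed by little and lay far above the AAV2-GFP ones.

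The immunoproteasome subunits Psmb8, Psmb9 and Psmb10 replace the standard catalytic subunits when peptides are made for display. Psmb9 and Psmb10 were called, with log2 fold changes of 1.23 ± 0.19 and 1.33 ± 0.20 (SE). Psmb8 was at 11.5 and 19.8 CPM after AAV2-Cre and at 4.85, 4.10 and 7.96 CPM after AAV2-GFP and was not called at 1.43 ± 0.39, a difference as large as those of its partners but with a wider spread. Of the remaining 8 genes 5 were called. Ifi27l2a, a small mitochondrial protein, was at 27.7 and 40.2 CPM against 7.56, 4.70 and 4.81 CPM, a log2 fold change of 2.54 ± 0.30, and Lgals3bp, a secreted glycoprotein, was the lowest of these at 0.77 ± 0.29. Ifi44 had the widest SE of the 47, at 182 and 95.1 CPM against 23.8, 74.5 and 9.56 CPM, and was not called at 1.90 ± 0.67.

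Marker lists of B cells, T and NK cells and plasmacytoid dendritic cells moved in the same direction. Of all genes tested edgeR called 1.33% higher and 0.294% lower. The 8 neutrophil markers overlapped between the arms, at 0.000815 to 0.0025% after AAV2-Cre and 6.51e-05 to 0.00195% after AAV2-GFP. Of the 4 neutrophil markers tested 0 were called by edgeR and 0 had an unadjusted p under 0.05. The share of 9 B cell markers was 0.0639 to 0.123% after AAV2-Cre and 0.0297 to 0.0526% after AAV2-GFP, with 2 of 9 called higher by edgeR, 7 of 9 at an unadjusted p under 0.05, 6 called higher by DESeq2 and 3 by limma-voom. That of 12 T and NK cell markers was 0.0668 to 0.117% and 0.0326 to 0.0616%, with 0 of 12 called by edgeR, 10 of 12 at an unadjusted p under 0.05, 5 called higher by DESeq2 and 1 by limma-voom. The 7 markers of plasmacytoid dendritic cells, which are the main source of type I interferon in blood, took 0.121 to 0.122% and 0.0784 to 0.0908%, with 1 of 7 called higher by edgeR, 5 of 7 at an unadjusted p under 0.05, 3 called higher by DESeq2 and 1 by limma-voom. Microglia and macrophage markers overlapped between the arms, at 0.920 to 1.19% and 0.737 to 1.05%, with 0 of 12 called by edgeR, 3 of 12 at an unadjusted p under 0.05, 1 called higher by DESeq2 and 0 by limma-voom. Rod markers took 1.33 to 2.83% against 2.96 to 3.47%, with 0 of 11 called by edgeR, 4 of 11 at an unadjusted p under 0.05, 1 called lower by DESeq2 and 0 by limma-voom. No marker of the B cell, T and NK cell, plasmacytoid, microglia and macrophage or rod lists was at 0 in every library of an arm. Of the plasmacytoid list 1 marker was at 0 in AAV2-GFP library 3. Of the 8 neutrophil markers 2 were at 0 throughout AAV2-Cre and 3 throughout AAV2-GFP. RGC markers overlapped between the arms, at 0.0284 to 0.0342% and 0.0321 to 0.0370%, with 1 of 10 tested called lower by edgeR. Müller glia markers overlapped too, at 0.246 to 0.319% and 0.137 to 0.299%, with 1 of 9 called higher. So did the endothelial and pericyte lists, with 0 of 8 and 0 of 6 called. At an unadjusted p under 0.05 these 4 lists had 2, 1, 0 and 1 markers in turn. The part of these cells in the levels of the 47 genes was not tested. The summed share of the 47 genes was 0.166 ± 0.0215% (SD, n = 3) after AAV2-GFP and 0.438 ± 0.0318% (SD, n = 2) after AAV2-Cre, with no overlap.

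**Figure D3:**
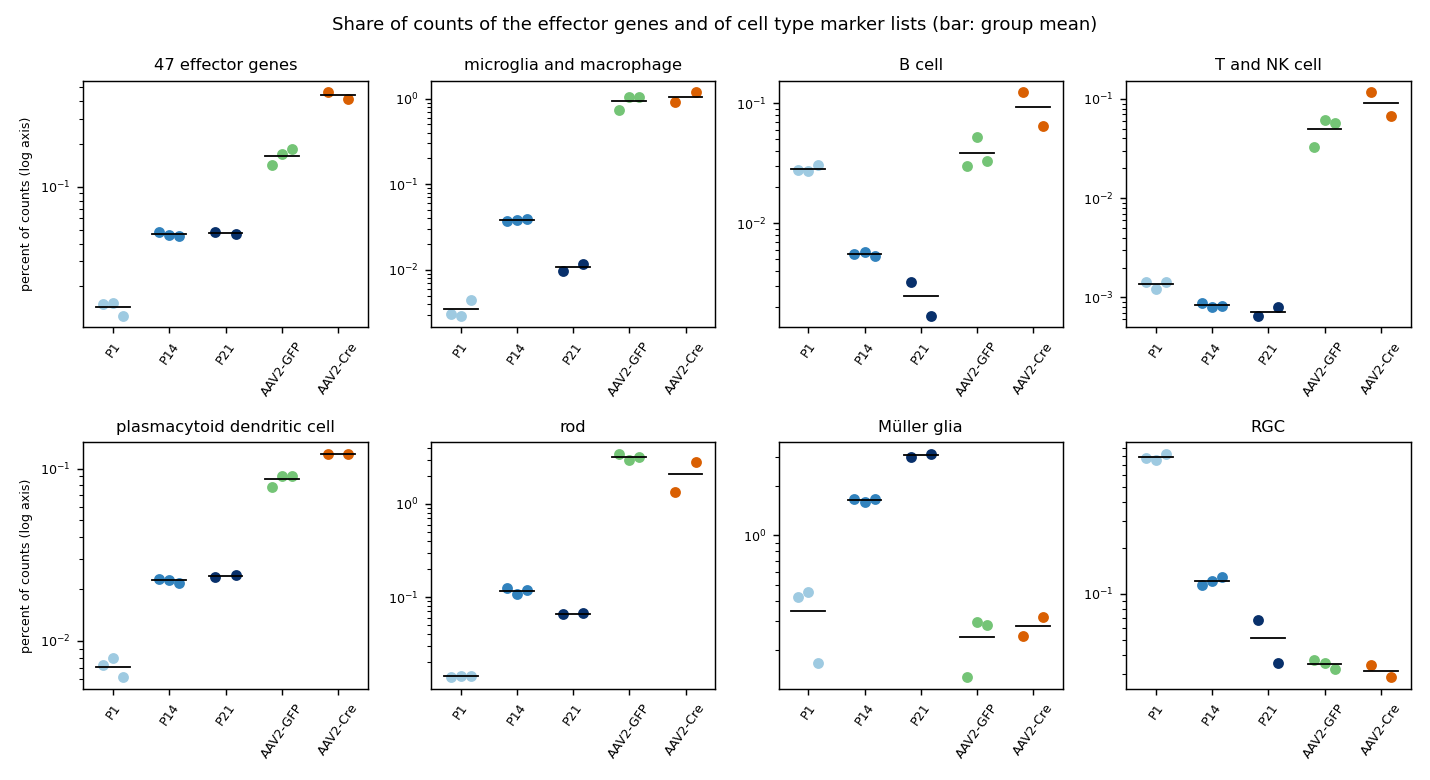
Summed share of counts (percent, log axis, own range in each panel) of the 47 effector genes and of 7 cell type marker lists in each library (points), with the group mean as a bar. The effector genes step up from P1 to P14 and from AAV2-GFP to AAV2-Cre, while the microglia and macrophage list falls from P14 to P21 and overlaps between AAV2-GFP and AAV2-Cre.

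The pathway upstream was described from a list of interferons, receptors, transducers, inhibitors and inducers. This list too was chosen with earlier results of these data known, so its adjusted p-values are descriptive and no independent evidence. Of 20 interferon genes, only Ifng passed the low-count filter, and only in the knockout dataset. It was at 15.2 and 8.16 CPM after AAV2-Cre and at 4.44, 6.14 and 17 CPM after AAV2-GFP, so the groups overlapped, and its log2 fold change was 0.30 ± 0.56 (SE) with an edgeR adjusted p of 0.850. Ifnb1 was at 0 in all 13 libraries, and in the AAV2-Cre libraries every interferon gene but Ifng was at 0, which at this depth allows up to 0.213 and 0.190 CPM for each gene. None of 6 receptor genes was called by edgeR between AAV2-Cre and AAV2-GFP, while 3 had an unadjusted p under 0.05 and DESeq2 called 2 higher and limma-voom 0. Among the signal transducers, Stat2 (log2 fold change 1.07 ± 0.18, edgeR adjusted p = 0.0269) and Irf9 (1.28 ± 0.14, adjusted p = 0.00698) were called higher. Of 8 genes that induce interferon, Irf7 (1.93 ± 0.28, edgeR adjusted p = 0.0167) and Myd88 (0.89 ± 0.15, adjusted p = 0.0280) were higher, and of 5 inhibitors Ptpn6 was (0.89 ± 0.15, adjusted p = 0.0269). Of all genes tested 1.33% were called higher.

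Between P1 and P14, most of the genes that could be tested rose. Of the 47, 44 passed the low-count filter of the development fit, and Ifi213, Phf11b and Ms4a4c did not. At P14, 39 of the 44 were called higher than at P1, beside 33.6% of all 20890 genes tested, and 1 was lower, beside 33.6% again. Isg20, Parp10, Slfn2 and Psmb10 were not called. The median log2 fold change was 2.47, beside -0.01 for all genes tested. With genes at 0 at 1 age set to their bound it was also 2.47. For 12 of the 44 every P1 library was below 10 counts, so they passed the filter through the later ages and their inclusion depends on the rise. Among the 25 with at least 10 counts in every library, 23 were called higher and 1 lower. P1 library 3 was the lowest of its group for many members, with a median log2 CPM of -0.74 against -0.09 and -0.22, and without it the median log2 fold change was 2.19 and 39 genes were again called higher.

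**Figure D4:**
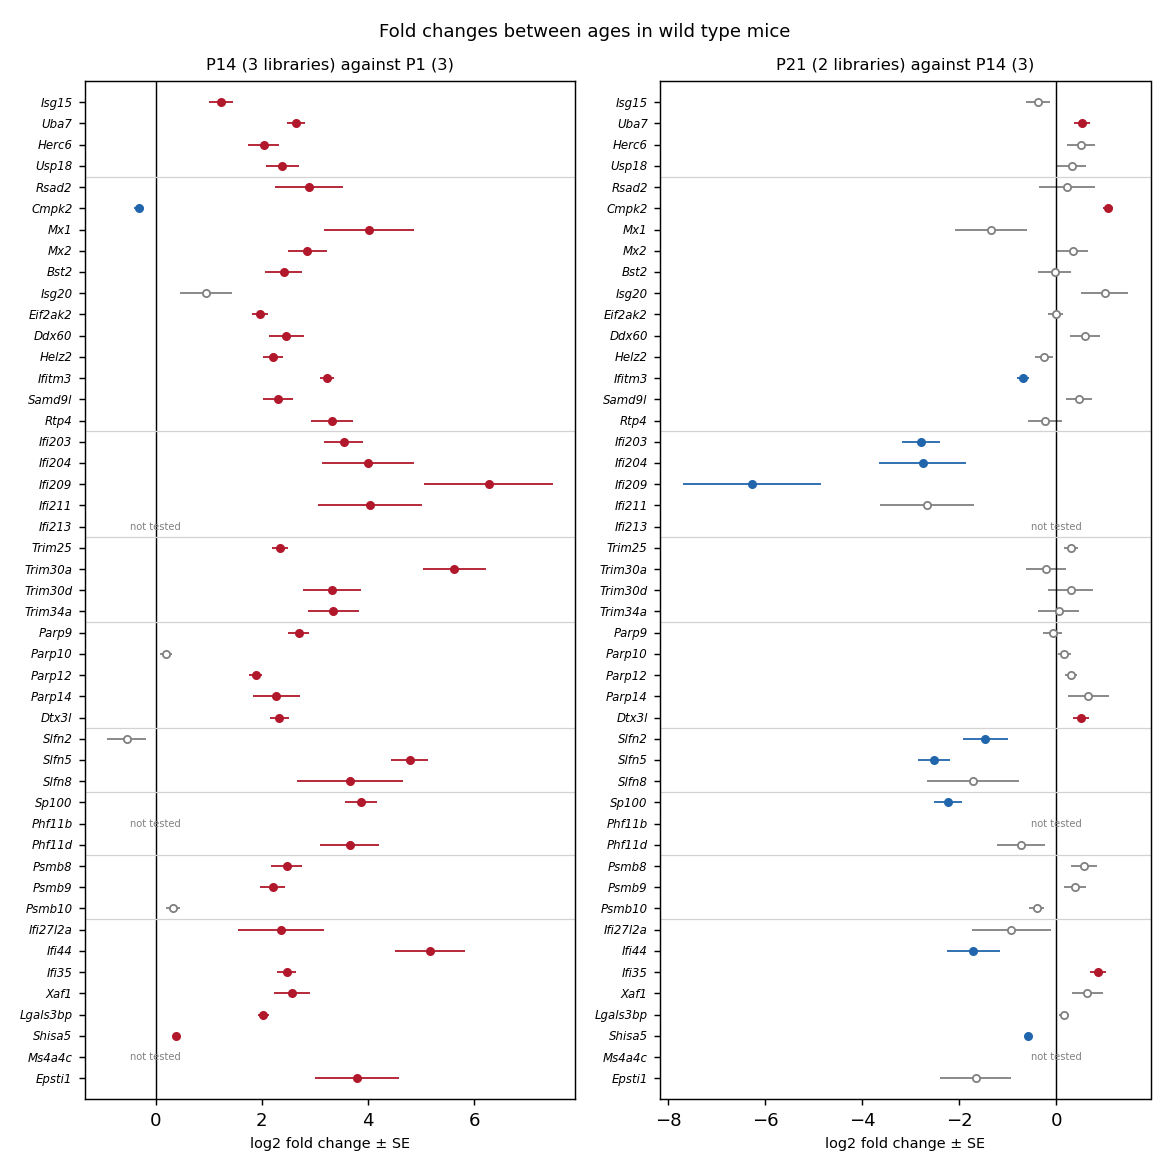
Log2 fold change with its SE for P14 against P1 (left) and P21 against P14 (right) for the 47 genes (rows, grouped by role), called genes filled in red (higher) or blue (lower), others open, and 3 genes not tested. Both panels use the same 3 P14 libraries. On the left nearly all points lie right of 0, on the right the p200, Schlafen and Sp100 rows lie left of 0 while most other rows lie near it. Ifi209, at 0 in every P1 and P21 library, is drawn at a fitted value that is no bound.

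**Figure D5:**
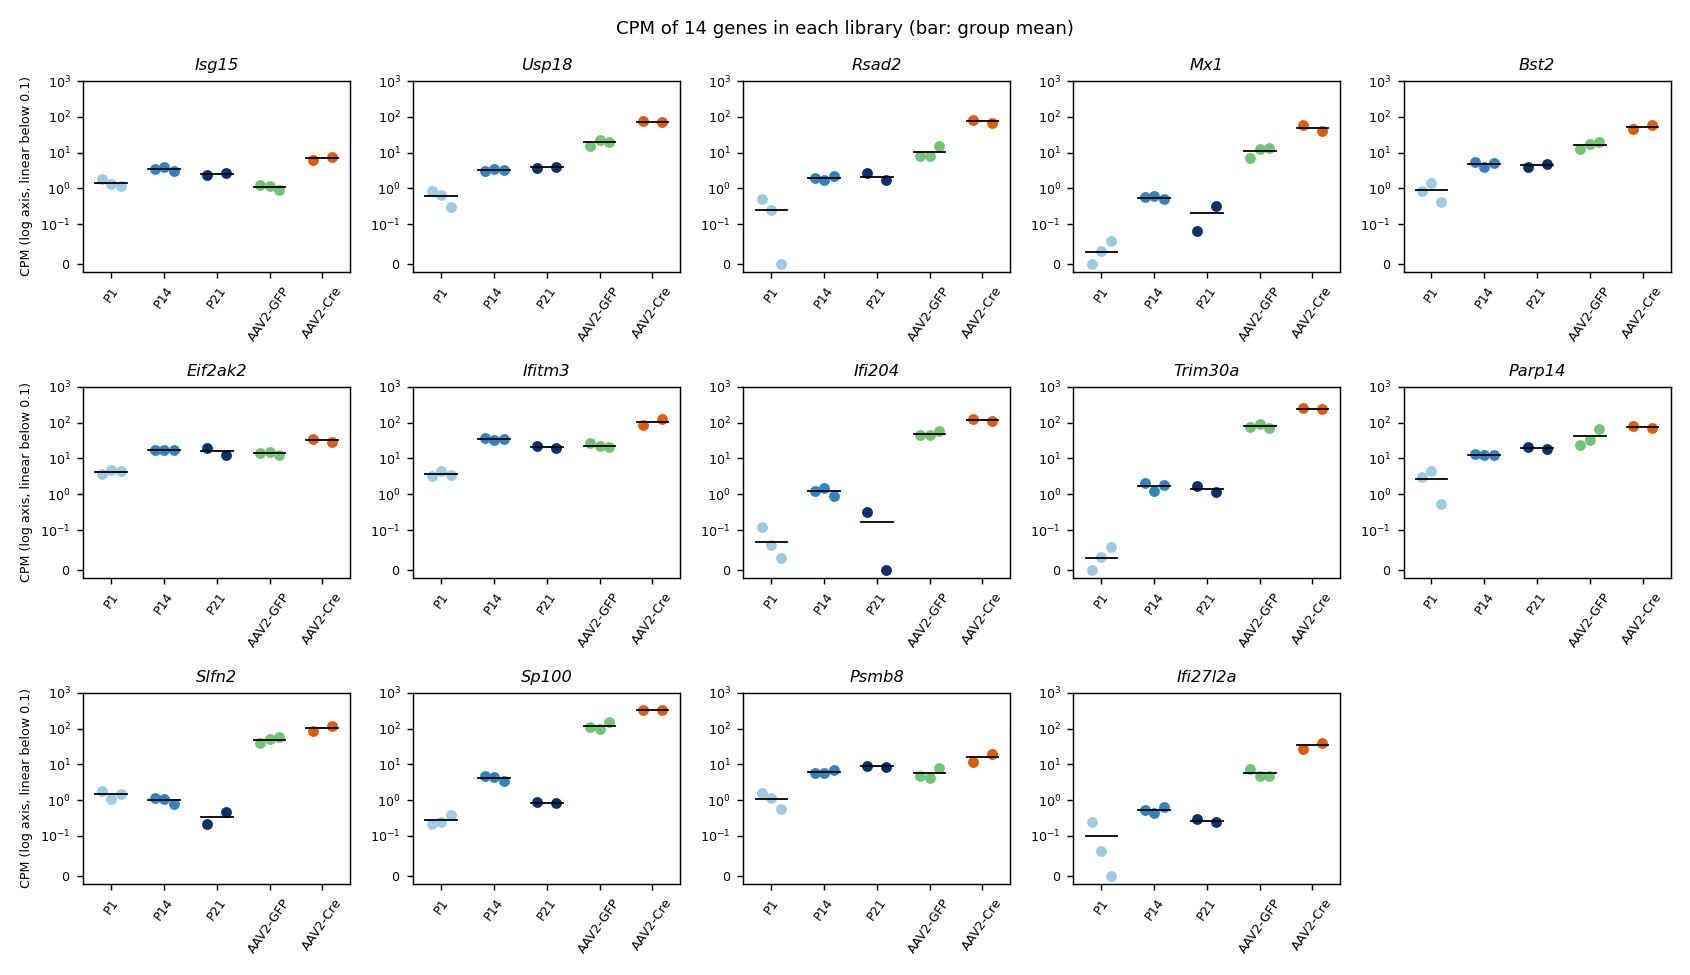
CPM of 14 genes in each library (points, with the group mean as a bar), by group. The axis is logarithmic above 0.1 CPM and linear below. Isg15 overlaps its P1 range after AAV2-GFP, and Sp100 and Ifi204 fall between P14 and P21, whereas Usp18 and Rsad2 do not.

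In the ISG15 system all 4 genes rose from P1 to P14. Isg15 went from 1.79, 1.28 and 1.16 CPM to 3.39, 3.86 and 2.99 CPM, a log2 fold change of 1.24 ± 0.23 (SE, edgeR adjusted p = 0.000884), and Uba7 had the largest change of the group, 2.64 ± 0.18 (adjusted p = 6.03e-07). Usp18 went from 0.866, 0.657 and 0.291 CPM to 3.06, 3.53 and 3.15 CPM, a log2 fold change of 2.39 ± 0.32 (edgeR adjusted p = 8.47e-05). The ages did not overlap for either of these genes. The share of all genes with that separation is not given here, and 33.6% of genes tested were called higher at P14.

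Of the 12 direct antiviral effectors 10 rose, beside 33.6% of all genes tested. Mx1 and Rtp4 were below 10 counts in every P1 library and passed the low-count filter through the later ages, so their inclusion depends on the rise. Rsad2 went from 0.508, 0.250 and 0 CPM at P1 to 1.91, 1.68 and 2.17 CPM at P14, a log2 fold change of 2.89 ± 0.64 (SE, edgeR adjusted p = 0.00270). Its neighbour Cmpk2 was the only member called lower, by 0.31 ± 0.10 on the log2 scale (edgeR adjusted p = 0.0173), from 26.5, 21.9 and 20.9 CPM to 20.0, 19.0 and 18.4 CPM. That call was lost without P1 library 1 and without P14 library 3 (0 genes called lower in each), and with scaling by library size alone, which moved the median of all genes from -0.01 to 0.11. At P1 Cmpk2 was thus well detected, while Rsad2, its neighbour on the chromosome, rested on few counts.

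Ifitm3 went from 3.31, 4.44 and 3.37 CPM at P1 to 38.4, 32.5 and 35.5 CPM at P14, a log2 fold change of 3.23 ± 0.13 (SE, edgeR adjusted p = 2.43e-08). Eif2ak2 went from 3.67, 4.63 and 4.50 CPM to 17.3, 16.8 and 16.9 CPM (1.96 ± 0.16, edgeR adjusted p = 1.99e-06). Bst2 went from 0.866, 1.38 and 0.407 CPM to 5.52, 3.83 and 5.03 CPM (2.42 ± 0.35, edgeR adjusted p = 0.000158). Mx1 held only 3 counts in all at P1 and 58 at P14, a ratio of 18.3 with a 95% counting interval from 5.95 to 91.1. In each of these genes the P14 libraries all lay above the P1 libraries, a separation whose share over all genes is likewise not given.

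Most p200 genes held few counts at P1. Ifi204 was at 0.119, 0.0626 and 0.0291 CPM at P1 and 1.23, 1.52 and 0.877 CPM at P14, from 7 and 125 counts in all. Ifi203, with 84 counts in all at P1 and 1038 at P14, was the exception, with a log2 fold change of 3.54 ± 0.36 (SE, edgeR adjusted p = 1.29e-05). Ifi211 held 2 counts in all at P1 and 42 at P14, a ratio of 19.8 (95% counting interval 5.16 to 169), and Ifi209 held 0 and 30, at least 9.45-fold higher when 3 counts over the group are taken as the floor. Ifi213, not tested, held 0 and 8, at least 2.52-fold higher. All but Ifi203 thus rested on few counts at P1, and those tested passed the low-count filter through P14.

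All 4 TRIM genes rose, beside 33.6% of all genes tested. Trim30a and Trim30d were below 10 counts in every P1 library and passed the low-count filter through the later ages, so their inclusion depends on the rise. Trim30a held 3 counts in all at P1 and 181 at P14, a ratio of 57.0 (95% counting interval 19.2 to 279), and Trim25, at 6.69, 6.35 and 4.30 CPM and then 30.6, 31.1 and 28.4 CPM, had the smallest log2 fold change, 2.35 ± 0.15 (SE, edgeR adjusted p = 4.05e-07). Trim25, the member with the least difference after AAV2-Cre, was thus well expressed and clearly changed here. Of the PARP set 4 of 5 rose, with Parp9 the most (2.69 ± 0.20, edgeR adjusted p = 1.46e-06), and Parp10 was not called (0.20 ± 0.12, edgeR adjusted p = 0.181). Parp14 went from 3.02, 4.35 and 0.523 CPM to 13.2, 12.6 and 12.9 CPM (2.27 ± 0.45, edgeR adjusted p = 0.00125).

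The Schlafen genes parted ways. Slfn5 rose by 4.79 ± 0.35 (SE) on the log2 scale (edgeR adjusted p = 1.04e-06), while Slfn2 was at 1.79, 1.06 and 1.48 CPM at P1 and 1.17, 1.09 and 0.774 CPM at P14 (-0.55 ± 0.36, edgeR adjusted p = 0.207). Sp100 went from 0.209, 0.250 and 0.378 CPM to 4.75, 4.59 and 3.38 CPM (3.87 ± 0.30, edgeR adjusted p = 1.61e-06), and Phf11b, not tested, from 0 to 26 counts in all, at least 8.19-fold higher. Of the immunoproteasome genes Psmb8 went from 1.61, 1.13 and 0.552 CPM to 5.93, 5.58 and 7.07 CPM (2.47 ± 0.29, edgeR adjusted p = 3.38e-05) and Psmb9 rose too, while Psmb10 did not pass (0.33 ± 0.14, edgeR adjusted p = 0.0532). All 7 of the other genes tested were called higher, from 0.38 ± 0.07 (edgeR adjusted p = 0.000516) for Shisa5, a membrane protein linked to cell death, upward. Ifi44 held 4 counts in all at P1 and 168 at P14. Ifi27l2a went from 0.239, 0.0626 and 0 CPM to 0.546, 0.429 and 0.645 CPM, from 10 counts in all to 58. Epsti1 held 4 counts in all at P1 and 65 at P14. Ifi44, Ifi27l2a and Epsti1 passed the low-count filter through the later ages, so their inclusion depends on the rise. The call of Ifi27l2a was lost in turn without P1 library 2, P14 library 1 or P14 library 3.

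Between P14 and P21 most of the genes were not called. Of the 44 genes 4 were called higher, beside 14.6% of all genes tested, and 9 lower, beside 19.3%, with 31 not called and a median log2 fold change of -0.02, so neither count stood clear above the share of all genes. The count of higher genes was 2 when any P14 library or P21 library 2 was left out, and the count of lower genes was 5 without P14 library 1. Among the p200 genes 3 of 4 were called lower, of which Ifi204 and Ifi209 had passed the low-count filter through P14. Ifi203 went from 9.97, 12 and 7.97 CPM to 1.59 and 1.16 CPM, a log2 fold change of -2.78 ± 0.40 (SE, edgeR adjusted p = 0.000657), and Ifi204 reached 0.329 and 0 CPM at P21, from 125 counts in all at P14 to 12, a call lost without any P14 library or P21 library 2. Ifi209 held 0 counts at P21, at least 6.63-fold lower than at P14 over a floor of 3 counts, and lost its call without either P21 library. Between P1 and P21 Ifi203 was not called (edgeR adjusted p = 0.153), while Ifi204, with 7 and 12 counts in all, Ifi211, with 2 and 4, and Ifi209, with 0 at both ages, held too few counts for a comparison.

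Slfn5, Slfn2 and Sp100 fell as well. Slfn5 went from 20.5, 19.0 and 15.9 CPM to 3.82 and 2.29 CPM, a log2 fold change of -2.52 ± 0.33 (SE, edgeR adjusted p = 0.000399), and Sp100 to 0.879 and 0.831 CPM (-2.23 ± 0.30, edgeR adjusted p = 0.000448). Slfn2 went to 0.220 and 0.475 CPM (-1.46 ± 0.47, edgeR adjusted p = 0.0370), a call lost without P14 library 1, P14 library 2 or P21 library 1, and was lower at P21 than at P1 as well (-2.01 ± 0.46, edgeR adjusted p = 0.00335). Ifi44 (-1.71 ± 0.54, edgeR adjusted p = 0.0366), Ifitm3 (-0.68 ± 0.13, edgeR adjusted p = 0.00269) and Shisa5 (-0.57 ± 0.07, edgeR adjusted p = 0.000401) were the other genes called lower. Ifitm3 stood at 22.3 and 19.7 CPM at P21, still above every P1 library, and the call of Ifi44 was lost without any P14 library or P21 library 2.

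Other roles had few calls. None of 4 TRIM genes and none of 3 immunoproteasome genes was called by edgeR between P14 and P21, and 0 of 4 and 1 of 3 had an unadjusted p under 0.05. DESeq2 called 0 TRIM genes and 1 immunoproteasome gene lower, and limma-voom called 1 TRIM gene higher and 1 immunoproteasome gene in each direction. All 4 ISG15 genes, all 12 antiviral effectors, all 4 TRIM genes and all 5 PARP genes tested were called higher at P21 than at P1 by edgeR. Of these Mx1, Rtp4, Trim30a and Trim30d were below 10 counts in every P1 library and passed the filter through the later ages. Limma-voom called 11 of the 12 antiviral effectors and DESeq2 called 4 of the 5 PARP genes, and the calls of Mx1 and Parp10 were kept in 7 of 12 and 7 of 13 alternative analyses. Rsad2 was at 2.61 and 1.66 CPM at P21, Usp18 at 3.79 and 3.89 CPM, Bst2 at 4.04 and 4.90 CPM, Eif2ak2 at 19.4 and 12.8 CPM, Parp14 at 21.1 and 17.9 CPM, Trim30a at 1.65 and 1.13 CPM, and Psmb8 at 9.01 and 8.55 CPM. None of these 7 was called between P14 and P21, and for each of these genes the P21 libraries lay above all P1 libraries. The share of all genes with that separation is not given here, and 34.1% of genes tested were called higher at P21. Isg15 was at 2.31 and 2.67 CPM (P21 against P1 log2 fold change 0.86 ± 0.26, edgeR adjusted p = 0.0133, lost without P21 library 2), Mx1 at 0.0824 and 0.327 CPM and Ifi27l2a at 0.302 and 0.238 CPM.

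Cmpk2 rose the most, from 20.0, 19.0 and 18.4 CPM at P14 to 39.1 and 36.9 CPM at P21, a log2 fold change of 1.07 ± 0.10 (SE, edgeR adjusted p = 7.95e-05), and so ended above P1, where it had started higher than at P14. The others called higher were Ifi35, a cytokine-induced scaffold (0.87 ± 0.16, edgeR adjusted p = 0.00316), Uba7 (0.53 ± 0.17, edgeR adjusted p = 0.0353) and Dtx3l (0.51 ± 0.17, edgeR adjusted p = 0.0419). Uba7 and Dtx3l lost their calls without any P14 library or P21 library 2. At P21, 34 of the 44 genes were higher than at P1, beside 34.1% of all genes tested, and 2 were lower, Slfn2 and Shisa5, beside 33.6%. Shisa5 (-0.19 ± 0.07, edgeR adjusted p = 0.0478) lost its call without P1 library 1, P1 library 3 or P21 library 2. The median log2 fold change was 2.55. For 12 of the 44 every P1 library was below 10 counts, so they passed the filter through the later ages. The count and the median share that limit, and the share of all genes is no even comparison for these 12. The comparisons between ages share libraries, so their values are not independent of each other.

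Cell type markers moved across the same ages. Of all genes tested 33.6% were called higher at P14 than at P1, and 19.3% lower at P21 than at P14. The 12 microglia and macrophage markers went from 0.00288 to 0.00443% of counts at P1 to 0.0376 to 0.0393% at P14 and 0.00966 to 0.0118% at P21, with 12 of 12 called higher at P14 and 11 of 12 lower at P21, none at 0 at any age. The 8 pericyte markers followed the same course, with means of 0.0208, 0.458 and 0.0758%. The 9 Müller glia markers took 0.347, 1.65 and 3.06% on average and the 8 endothelial ones 0.0218, 0.142 and 0.182%, although 5 of these 8 were called lower at P21 than at P14 and their median log2 fold change was -1.40, while RGC markers went from 0.786 to 0.122 and 0.0512%. The part of these cells in the rise to P14 and the fall to P21 was not tested.

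Many pathway genes were also called between P1 and P14, where 33.6% of all genes tested were called higher and 33.6% lower. The receptors were called in both directions, so nothing is read from their count. All 8 genes that induce interferon were called higher at P14, from 0.20 ± 0.06 (SE) for Tbk1 (edgeR adjusted p = 0.0123) to 3.75 ± 0.28 for Sting1, the adaptor of DNA sensing (edgeR adjusted p = 1.19e-06), and Irf7 rose by 2.53 ± 0.21 (edgeR adjusted p = 3.12e-06). Of 6 receptor genes 3 were higher, including Ifnar2 (1.39 ± 0.10, edgeR adjusted p = 7.33e-07), and 2 were lower, Ifnar1 (-0.27 ± 0.05, edgeR adjusted p = 0.000557) and Ifngr2 (-1.34 ± 0.07, edgeR adjusted p = 1.06e-07). Among the transducers Jak1, Jak2 and Stat2 fell, and Irf9 was not called (0.04 ± 0.06, edgeR adjusted p = 0.585). Stat2 and Irf9, higher after AAV2-Cre, therefore did not rise with the members between P1 and P14. Of 5 inhibitors 4 were higher. The summed count of the 20 interferon genes was 0 in every P1 library and 1 to 2 at P14.

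Sting1 also fell from P14 to P21, by 2.21 ± 0.28 (SE) on the log2 scale (edgeR adjusted p = 0.000336), as did Ptpn6, a phosphatase of blood cells, by 2.03 ± 0.31 (adjusted p = 0.00100), whereas Irf7 (-0.16 ± 0.21, edgeR adjusted p = 0.579) was not called. In the same interval 1 of 8 inducers was higher and 3 lower, beside 14.6% and 19.3% of all genes tested. Of the transducers Stat2 and Irf9 were higher and Jak2 was lower.

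Set side by side, the injured adults had the higher levels for most of the 47 genes. All 5 adult libraries lay above all 8 development libraries for 33 of the 47 genes, beside 22% of the 23844 genes that passed a filter over all libraries. The p200 genes, Slfn2, Slfn8, Sp100, Phf11b and Ms4a4c, a membrane protein of lymphocytes and monocytes, were among the 33. Ms4a4c was at 0 in every P1 and P21 library and at 51.9, 29.1 and 46.4 CPM after AAV2-GFP, and Slfn8 was at no more than 0.683 CPM in any development library and at 42.1, 70.9 and 53.6 CPM after AAV2-GFP. The 14 genes with some overlap were Isg15, Cmpk2, Mx2, Isg20, Eif2ak2, Helz2, Ifitm3, Trim25, Parp12, Psmb8, Psmb10, Ifi35, Xaf1 and Lgals3bp. Among these Isg15 was lower in all 3 AAV2-GFP libraries than in all 5 of P14 and P21. Lgals3bp was at 29.6 and 34.2 CPM even after AAV2-Cre and at 48.2 to 56.0 CPM at P14 and P21, and Parp12 was at 18.8 and 14.6 CPM after AAV2-Cre against 29.9 to 38.8 CPM. For Lgals3bp and Parp12 the level after AAV2-Cre was thus below that of every P14 and P21 library.

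Levels of different genes can be compared only per length. In CPM per kilobase of annotated exon, Ifitm3 and Phf11b led after AAV2-Cre, both at 158, before Shisa5 at 94.0, Ms4a4c at 73.7 and Ifi27l2a at 73.4. After AAV2-GFP the order was led by Phf11b (49.4), Shisa5 (40.0), Ifitm3 (34.1) and Slfn2 (29.9). At P14 Ifitm3 (52.4), Lgals3bp (17.5), Shisa5 (14.2), Psmb10 (13.0) and Ifi35 (10.1) were highest, and at P1 Shisa5 (10.6) and Psmb10 (10.1) were. Phf11b was thus first after AAV2-GFP and at 0 at P1. Isg15, among the genes with the largest log2 fold change after AAV2-Cre, ranked 37 of 47 per kilobase after AAV2-Cre and 44 after AAV2-GFP, while at P1 it ranked 8. Exon lengths are from an annotation that may differ from the one the authors counted on, and neighbours in these orders were not tested.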

How the data were processed

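The 13 libraries of Thy1.2-sorted mouse retinal cells were those of AAV2-Cre (2), AAV2-GFP (3), P1 (3), P14 (3) and P21 (2). Per the submitters' processing notes and the study's methods, the authors' tools were FastQC 0.11.9 for read quality, Trimmomatic 0.39 for trimming, HISAT2 2.2.1 for alignment (genome GRCm38/mm10) and, for gene counts, featureCounts (Subread 2.0.3). Raw counts for 52550 genes were deposited, with no normalization, and the annotation is not given in the sources used here. Reads from a gene and an antisense neighbour cannot be told apart, since no strand setting is given.

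Symbols were matched by Ensembl identifier without version for 52403 of 52550 genes. The knockout dataset (5 libraries) and the development dataset (8 libraries) were fitted separately with edgeR 4.0.16 (glmQLFit and glmQLFTest, TMM, filterByExpr over the groups) in R 4.3.3, with Benjamini-Hochberg adjustment over all genes tested. Levels are CPM after TMM over all 13 libraries, and shares are percent of all counts. The fits were tested on simulated data. The members and all gene lists were chosen with earlier results of these data known. All 47 members could be named. For each comparison and role those with the largest and smallest log2 fold change and every member called against the majority were named, library values were given for 14 genes, and other genes came from the interferon pathway list. A result for 1 gene of that list is not reported here. Counting floors are 3 counts, and intervals are exact conditional binomial intervals at 95%, both covering counting error only. Promoters were from RefSeq (GRCm38.p6), and gene positions, exon lengths and 100-base words from GENCODE M21. Alternatives were DESeq2 1.42.0, limma-voom 3.58.1, other scalings and filters, all 13 libraries in 1 fit, a replicate block, a fold limit, and each library left out in turn. Where leaving out a library left a lone sample, its spread was taken from the other groups.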

Additional observations from a re-analysis of the deposited data

How the results depend on the processing

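Total depth limits the rarest genes, since a count of 0 allows up to 0.0774 to 0.213 CPM, depending on the library. Across single genes and alternatives, 475 values of AAV2-Cre against AAV2-GFP kept their direction and side of the threshold, 94 lost a call and 42 gained one. For P14 against P1 these were 578, 7 and 10, for P21 against P14 487, 33 and 16, and for P21 against P1 520, 23 and 6. The direction changed for 15 values of P21 against P14 and 4 of P21 against P1, all of genes not called. For P21 against P14 the log2 fold change of Trim34a was -0.0059 with library size alone, -0.0020 with all 13 libraries in 1 fit and -0.29 with the replicate block, where that of Rsad2 was -0.026. With 1 library left out it ran from -0.13 to 0.22 for Trim34a, -0.13 to 0.49 for Rsad2, -0.20 to 0.11 for Bst2, -0.32 to 0.23 for Eif2ak2, -0.19 to 0.026 for Parp9 and -0.50 to 0.011 for Trim30a. For P21 against P1 it ran from -0.22 to 0.013 for Psmb10, -4.36 to 2.19 for Ifi204 and -2.72 to 2.28 for Ifi211, the lowest of Ifi204 and Ifi211 being fitted values against a lone P21 library at 0 and no bound. The number of members higher after AAV2-Cre (33) was 31 to 44 under the other scalings, filters, tools and fits, and 0 to 33 with 1 library left out, lowest where a lone AAV2-Cre library remained. For P14 against P1, with at least 10 counts in every library 23 of the 25 members then tested were higher, the median log2 fold change was 2.70 with limma-voom and 2.19 to 2.86 with 1 library left out, and the 1 lower call became 0 with library size alone, all 13 libraries in 1 fit or a fold limit, and was 0 to 1 with 1 library left out. For P21 against P14, the number higher (4) was 11 with limma-voom, 2 with library size alone, 2 with all 13 libraries in 1 fit, 1 with a fold limit and 2 to 4 with 1 library left out, and the number lower (9) was 3 with at least 10 counts in every library and 5 to 8 with 1 library left out. The median log2 fold change of -0.02 turned to 0.31 with at least 10 counts in every library, where fewer members are tested. For P21 against P1, the number higher was 22 with at least 10 counts in every library, and the number lower (2) was 1 with DESeq2, limma-voom, library size alone, both other filters on low counts, a fold limit or the joint fit of all libraries, and 1 to 2 with 1 library left out. Apart from the changes of filter, which change the genes tested, the cause was not tested.

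Same-numbered libraries correlated between -0.041 and 0.017 in their deviations from the group means, so they share only a number. With a replicate block, 33 members were higher after knockout and 39 at P14 against P1, while for P21 against P14 2 were higher and 5 lower, and for P21 against P1 32 were higher and 1 lower.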
